A study of Mus musculus with 2 samples.

Results

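Teneurins, latrophilins and FLRT proteins are cell-surface proteins that bind one another between neighbouring cells, and the 10 mouse genes that encode them are Tenm1, Tenm2, Tenm3 and Tenm4, Adgrl1, Adgrl2 and Adgrl3, and Flrt1, Flrt2 and Flrt3. They were chosen by name, not by their values, and all 10 were found among the 55536 genes of the GENCODE M21 tables. Polyadenylated RNA was sequenced from mouse hindbrain of strain B6NCrl at embryonic day 12.5, with male and female embryos mixed. There was 1 group, untreated and of 1 genotype as far as the labels state, with 2 samples that the labels number as biological replicates: pool 1 came from 120 embryos and pool 2 from 88. Nothing was compared by design, so values are given for each pool and as mean ± SD, and no test was run.

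As background, teneurins are large single-pass proteins with epidermal growth factor (EGF) repeats and a beta-propeller outside the cell, and they bind latrophilins, which are adhesion G protein-coupled receptors. Latrophilins also bind FLRT proteins, through an olfactomedin domain, and neurexins. FLRT proteins carry leucine-rich repeats and in turn bind Unc5 receptors, and they have roles in axon guidance, cell migration and synapse formation. In the hindbrain this network meets growing axons and migrating neurons.

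The libraries held 32547454 (pool 1) and 30559015 (pool 2) expected counts, of which spike-in RNA took 3.31% and 4.25%. Of 8 hindbrain identity genes, 7 were at 1 TPM (transcript copies scaled per length and library total) or more in both pools, led by Hoxb2 at 45.1 and 56.7 TPM, while Egr2 was at 0.88 and 1.17 TPM. Of 6 forebrain genes, 2 reached 1 TPM in both pools. Genes of other cell types were present: the summed level of 8 skeletal muscle genes was 37.9 TPM in pool 1 and 193 TPM in pool 2, with all 8 at 1 TPM or more in both pools, and that of 10 genes of mesenchyme and meninges was 1333 and 1725 TPM.

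All 10 members were at 1 TPM or more in both pools, as were 61.8% of the 22028 protein-coding genes. Their median level was 33.5 TPM, beside 21.8 TPM over the 13619 protein-coding genes that reached 1 TPM in both pools. Adgrl2 was the highest at 84.4 ± 12 TPM (SD, n = 2) and stood above 85.3% of those genes. Tenm1 was the lowest at 4.30 ± 0.0566 TPM, above 15.4%. In whole tissue, fewer cells with a transcript and less of it per cell cannot be told apart.

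**Figure D1:**
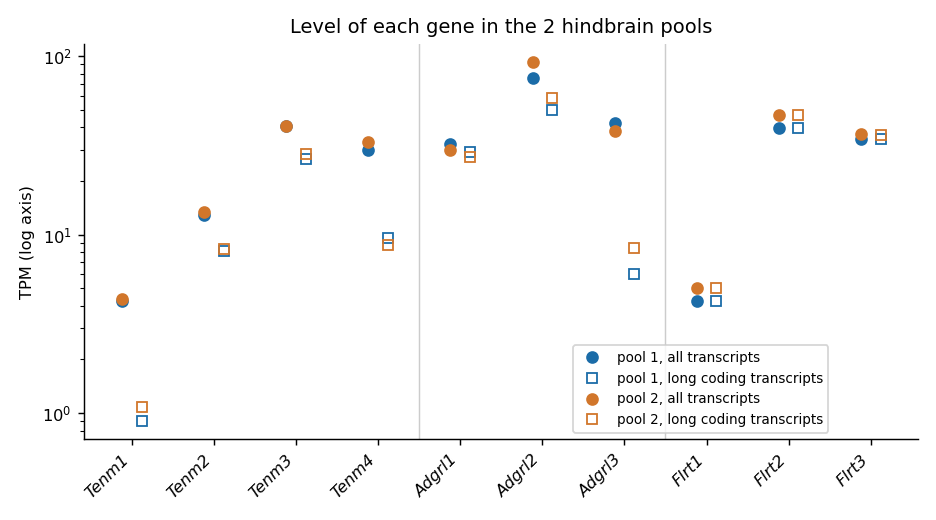
TPM of each gene in pool 1 (blue) and pool 2 (orange), on a log axis. Filled circles sum all transcripts and open squares sum only transcripts with a complete, long coding sequence. Adgrl2 is highest by either sum, and Tenm1, Tenm4 and Adgrl3 lie furthest below their filled circles.

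Among the teneurins, Tenm3, known for matching axons to their targets in the visual system, measured 40.9 TPM in pool 1 and 40.7 TPM in pool 2. Tenm4, known for a role in oligodendrocyte differentiation and myelination, measured 29.8 and 33.1 TPM. Tenm2, a latrophilin ligand at synapses, measured 12.9 and 13.4 TPM. Tenm1, on the X chromosome, measured 4.26 and 4.34 TPM. The 4 teneurins thus spanned 4.30 to 40.8 TPM in their means, and no pair of neighbours in that order overlapped between pools. These levels rested on 307 and 346 expected counts for Tenm1 and on 5003 and 4882 for Tenm3. The coding sequences of the leading coding transcripts were 64.3% (Tenm1 and Tenm3) to 70.0% (Tenm2 and Tenm3) identical over their aligned bases.

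Gene totals for the teneurins combined very different RNAs. Transcripts were called long coding where their coding sequence was complete and at least 50% as long as the longest of the gene, a rule set after the data were seen. Long coding transcripts carried 67.5% ± 3.41 (SD, n = 2) of Tenm3's TPM and 62.2% ± 0.721 of Tenm2's. The share was 29.3% ± 3.87 for Tenm4 and 23.0% ± 2.58 for Tenm1. Over all 13619 expressed protein-coding genes the median share was 84.5%, and over the 978 of them with a coding sequence of 4000 bases or more it was 55.7%. Of those 978 genes, 41.8% had under 50% of their TPM in long coding transcripts, and of the 7 members of that length 3 did (Tenm1, Tenm4 and Adgrl3). In expected counts, which do not divide by length, long coding transcripts held 70.3% of Tenm1 in each pool, 84.4% and 82.1% of Tenm4, and 31.1% and 41.8% of Adgrl3. Thus only Adgrl3, 1 of the 7, was under 50%, and the share of the 978 genes was not computed by expected counts.

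The leading transcript of Tenm1 was Tenm1-204, a non-coding RNA of 1143 bases and 3 exons at chrX:43323955-43429003 (mm10, minus strand), with 2.90 and 2.43 TPM in pools 1 and 2. None of its bases lies in an exon of the long coding transcripts. The long coding Tenm1-203, of 12879 bases, was at 0.73 and 0.96 TPM. Because TPM divides by length, the order turned in expected counts, where Tenm1-203 held 187 and 225 and Tenm1-204 held 60.5 and 46.8. By long coding transcripts alone Tenm1 was at 0.900 and 1.08 TPM, and the other 9 members stayed at 1 TPM or more in both pools.

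Tenm4 was led by Tenm4-209, a 704-base RNA of 5 exons with an incomplete coding sequence of 303 bases, at 14.1 and 18.7 TPM. It lies at the 5' end of the gene (chr7:96210154-96553482, mm10, plus strand), and 448 of its bases are in exons of the long coding transcripts. Tenm4-203, the leading long coding transcript with 13172 bases, was at 7.40 and 6.06 TPM. A retained-intron RNA from the same end, Tenm4-204, was at 4.30 and 3.61 TPM. Expected counts again gave another order, with 67.9% and 59.6% of the gene's counts in Tenm4-203. Tenm4-209 was higher in pool 2 and Tenm4-203 in pool 1. The gene as a whole was higher in pool 2 by TPM and in pool 1 by counts.

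Tenm2 was led by Tenm2-202, a long coding transcript at 8.08 and 8.30 TPM, followed by the non-coding Tenm2-205 (2.63 and 2.88 TPM) and Tenm2-207 (1.90 and 1.95 TPM). Tenm3 was led by the long coding Tenm3-201 at 21.5 and 23.1 TPM. A second long coding transcript, Tenm3-206, was at 5.12 and 5.39 TPM, and the short Tenm3-202 and Tenm3-204 were at 6.97 and 6.0 and at 4.48 and 4.17 TPM. Both genes had nearly the same makeup in the 2 pools.

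**Figure D2:**
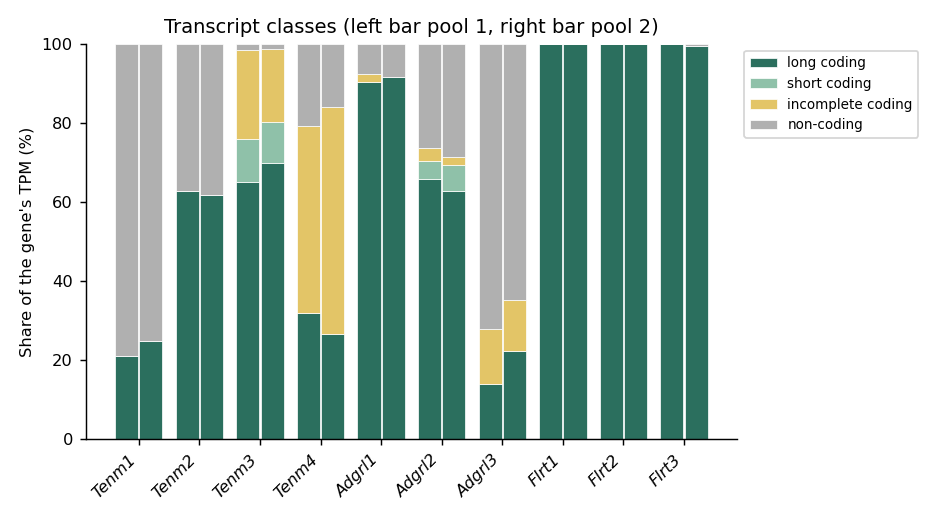
Share of each gene's TPM, in percent, held by long coding, short coding, incomplete coding and non-coding transcripts, with pool 1 in the left bar and pool 2 in the right. The 3 Flrt genes are almost wholly long coding, while non-coding transcripts are the largest class of Tenm1 and Adgrl3 and incomplete ones that of Tenm4.

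Teneurins are known to be spliced at short exons in the EGF region and in the beta-propeller, and the propeller insert is known to alter binding to latrophilins. All 4 genes hold a 21-base coding exon at similar places in the coding sequence (its first base is base 3693 in Tenm1, 3795 in Tenm2, 3657 in Tenm3 and 3882 in Tenm4), shown here because it separates the main coding forms of Tenm3 and Tenm4 and is shared by all 4 genes. The exon lies at chrX:42648394-42648414 (minus strand) in Tenm1, chr11:36054926-36054946 (minus) in Tenm2, chr8:48287133-48287153 (minus) in Tenm3 and chr7:96854717-96854737 (plus) in Tenm4, all in mm10. In each GENCODE M21 coding sequence below, capitals mark the 21-base exon and lower case the 30 bases before and after it.
Tenm1: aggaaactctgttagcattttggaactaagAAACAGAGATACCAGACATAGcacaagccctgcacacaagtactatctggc
Tenm2: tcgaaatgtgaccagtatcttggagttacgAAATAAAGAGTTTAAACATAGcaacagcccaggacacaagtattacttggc
Tenm3: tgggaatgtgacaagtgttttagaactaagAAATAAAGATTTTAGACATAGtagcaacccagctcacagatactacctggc
Tenm4: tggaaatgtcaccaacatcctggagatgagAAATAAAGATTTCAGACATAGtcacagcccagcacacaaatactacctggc
The exons of Tenm3 and Tenm4 match at 20 of 21 bases, those of Tenm2 and Tenm3 at 19, and the least alike, Tenm1 and Tenm2, at 14.

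In Tenm3, transcripts with the 21-base exon made up 79.1% (pool 1) and 79.6% (pool 2) of the TPM of transcripts that either hold it or join its neighbours directly. In Tenm4 the share was 80.4% and 72.8%. In Tenm1 it was 100% in both pools, where the 1 annotated transcript that skips the exon was at 0 TPM. In Tenm2 all 3 annotated coding transcripts hold the exon, so no share can be given. The form with the insert was therefore the larger in the 3 genes where M21 annotates a choice.

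The second short exon lies in the EGF region and is shown because in Tenm3 and Tenm4 it goes together with the first in the long coding transcripts. It has 27 bases in Tenm3 (chr8:48313238-48313264, minus strand) and Tenm4 (chr7:96805105-96805131, plus), which match at 24 of 27, and 24 bases in Tenm1 (chrX:42727337-42727360, minus). Capitals mark the exon and lower case the 30 flanking coding bases on each side.
Tenm1: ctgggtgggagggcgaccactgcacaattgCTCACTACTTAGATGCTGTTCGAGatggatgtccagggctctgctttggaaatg
Tenm3: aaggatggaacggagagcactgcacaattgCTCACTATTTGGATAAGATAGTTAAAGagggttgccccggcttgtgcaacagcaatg
Tenm4: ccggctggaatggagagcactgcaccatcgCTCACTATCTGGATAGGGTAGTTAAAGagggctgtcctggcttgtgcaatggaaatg
Transcripts with the exon held 80.8% and 81.1% in Tenm3 and 79.0% and 71.4% in Tenm4, and no annotated Tenm1 transcript skips it. The shares of the 2 exons are not independent: Tenm3-201 holds both and Tenm3-206 neither, while Tenm4-203 and Tenm4-202 hold both and Tenm4-201 neither.

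These Tenm4 shares depended on the annotation used by the authors. In their tables made with GENCODE M4, Tenm4-201 was at 7.26 and 7.25 TPM and Tenm4-203 at 1.17 and 0.22 TPM. In M21 they were at 1.88 and 2.39 TPM and at 7.40 and 6.06 TPM, the opposite order. Tenm4-201 has 13547 bases in M4 and 11021 in M21, and the exons of the M4 models were not used here. For Tenm3, the M4 tables placed 18.6 and 18.4 TPM on a transcript of 7827 bases that is not in M21, and Tenm3-201 fell to 7.35 and 8.03 TPM.

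Among the latrophilins, Adgrl2 was the most abundant in both pools, measuring 75.9 TPM in the first and 92.9 TPM in the second. Adgrl3, which binds teneurins and FLRT3 at synapses, measured 42.5 and 37.9 TPM. Adgrl1, the first latrophilin found as a receptor of the spider toxin alpha-latrotoxin, measured 32.1 and 29.7 TPM. By TPM Adgrl2 was higher in pool 2 and the others in pool 1, and no 2 of the 3 genes overlapped between pools. Their leading coding transcripts were 66.8% to 69.5% identical over aligned coding bases.

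Long coding transcripts held 90.9% ± 0.912 (SD, n = 2) of Adgrl1's TPM, 64.3% ± 2.09 of Adgrl2's and 18.2% ± 5.83 of Adgrl3's. Adgrl1 was almost wholly 1 transcript, Adgrl1-207, at 28.3 and 26.4 TPM. Adgrl3 was spread over 35 annotated transcripts, of which 14 had no count in either pool. Its leading transcript was Adgrl3-228, a retained-intron RNA of 2728 bases at the 5' end of the gene (chr5:81020138-81388784, plus strand), at 9.50 and 9.16 TPM. Adgrl3-220, whose annotated coding sequence is incomplete, was at 5.81 and 4.85 TPM, and the leading long coding transcript, Adgrl3-211, at 3.11 and 5.91 TPM. All 4191 bases of Adgrl3-220 lie in exons of the long coding transcripts, yet the class rule leaves it out of the long coding share. By long coding transcripts alone Adgrl3 was at 6.0 and 8.48 TPM, the 8th of the 10 members, where all its transcripts together made it the 4th.

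Latrophilins are known for a short insert between their lectin and olfactomedin domains, which is reported to weaken binding to teneurins. It is shown here because its estimated share differed between the 3 genes. The insert is a 15-base exon in Adgrl1 (chr8:83926262-83926276, plus strand), a 12-base exon in Adgrl2 (chr3:148860427-148860438, minus) and a 15-base exon in Adgrl3 (chr5:81509724-81509738, plus), in mm10. Capitals mark the exon and lower case the 30 coding bases on each side.
Adgrl1: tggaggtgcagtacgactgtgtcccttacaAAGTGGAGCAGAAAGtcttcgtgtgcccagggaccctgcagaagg
Adgrl2: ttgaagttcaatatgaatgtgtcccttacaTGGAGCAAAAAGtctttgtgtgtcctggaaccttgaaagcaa
Adgrl3: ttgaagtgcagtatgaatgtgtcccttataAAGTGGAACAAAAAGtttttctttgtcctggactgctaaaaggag
The Adgrl1 and Adgrl3 exons match at 13 of 15 bases. Transcripts with the insert held 3.4% and 2.6% of the TPM over this place in Adgrl1, 25.2% and 22.6% in Adgrl2, and 78.8% and 76.0% in Adgrl3. The ranges of the 3 genes over the pools did not overlap. These shares cover only transcripts that hold the insert or join its neighbours directly. Adgrl2-202, at 9.08 and 10.1 TPM, is in neither part of the Adgrl2 share. In pool 1 Adgrl3 had 8.58 TPM with and 2.31 TPM without the insert, of 42.5 TPM for the gene. In Adgrl3 the only annotated transcripts that skip the insert, Adgrl3-226 and Adgrl3-231, are retained-intron RNAs. The share of 100% among its long coding transcripts in both pools was therefore fixed by the annotation. Within coding transcripts the share of Adgrl3 thus cannot be set against those of the other genes.

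A later 27-base exon is present in Adgrl2 (chr3:148827212-148827238) and Adgrl3 (chr5:81757986-81758012), which match at 21 of 27 bases there. Among transcripts that hold it or join its neighbours directly, its share of TPM was 59.4% and 63.0% in Adgrl2. In Adgrl3 it was 35.6% and 46.9%. These are not shares of the whole gene. In Adgrl2 they leave out Adgrl2-217 and Adgrl2-220, with 9.08 TPM with and 6.21 TPM without the exon in pool 1. On the same basis a further 18-base exon of each gene had 97.6% and 100% in Adgrl1 and 0% and 2.6% in Adgrl2. In Adgrl3 it had 20.4% and 17.8%. The pool 1 value came from 1.92 TPM with the exon and 7.51 TPM without it. Among long coding transcripts alone the 18-base exon was at 100% in both pools in Adgrl1 and in Adgrl3. In Adgrl1 this was fixed by the annotation, since the only transcript that skips it, Adgrl1-203, has an incomplete coding sequence. In Adgrl2 the only transcript that holds it, Adgrl2-210, is incomplete too, and in Adgrl3 the value rests on Adgrl3-217 alone. The order of these genes within long coding transcripts therefore cannot be given. Of the 16 coding exons of at most 30 bases found in the teneurins and latrophilins, 15 have a length that is a multiple of 3 and so keep the reading frame. The exception is an 11-base exon of Adgrl3 in a transcript at 0 TPM in both pools.

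**Figure D3:**
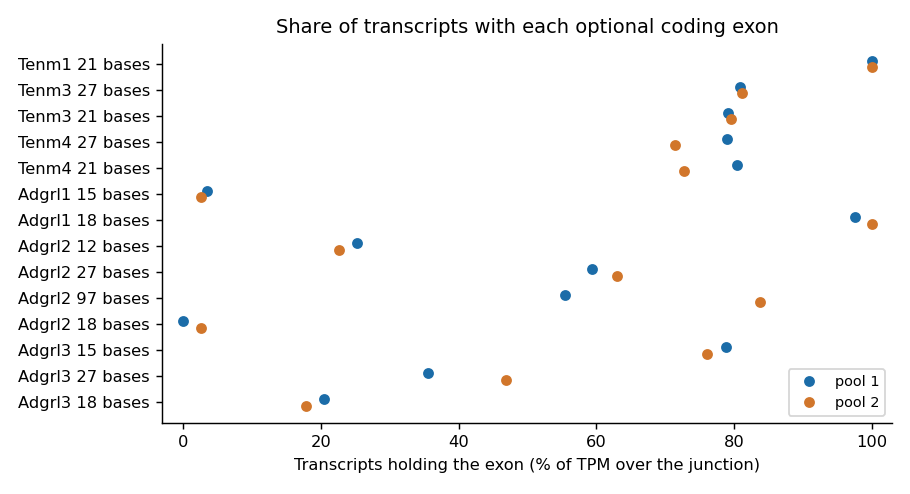
Percent of TPM, among transcripts that either hold an optional coding exon or join its neighbours directly, that was held by transcripts with the exon, for pool 1 (blue) and pool 2 (orange). The Adgrl1, Adgrl2 and Adgrl3 inserts of 15, 12 and 15 bases spread from 3.4% to 78.8% in pool 1. Among the exons shown, the 97-base one of Adgrl2 moves most between the pools. That exon was included because it marks the change of leading transcript, so its move is not a separate finding. The other exons are all short, and no other longer exon was measured.

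By TPM, Adgrl2 was the only member whose leading transcript differed between the pools, 1 of the 9 with more than 1 transcript, against 9.65% of 12270 expressed protein-coding genes with 2 or more. By expected counts Adgrl3 changed too, from Adgrl3-228 in pool 1 to Adgrl3-211 in pool 2, and with M4 no member did by TPM. For these 2 alternatives no share over all genes was computed. Adgrl2-217 led in pool 1 with 21.7 TPM and had 8.99 TPM in pool 2. Adgrl2-220 led in pool 2 with 28.4 TPM and had 8.90 TPM in pool 1. The deposited 95% intervals of Adgrl2-220 did not overlap (4.54 to 15.5 and 17.8 to 36.1 TPM), while those of Adgrl2-217 did (13.0 to 24.4 and 0.00946 to 16.4 TPM). Adgrl2-217, at 9.68% of the gene in pool 2, is named because its values were seen.

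A 97-base exon at chr3:148822955-148823051 (mm10, minus strand) is in Adgrl2-220 and not in Adgrl2-217, and it is shown because it marks this difference. Its length is not a multiple of 3, and the annotated coding sequence is 4209 bases with it and 3369 without it. Capitals mark the exon.
Adgrl2: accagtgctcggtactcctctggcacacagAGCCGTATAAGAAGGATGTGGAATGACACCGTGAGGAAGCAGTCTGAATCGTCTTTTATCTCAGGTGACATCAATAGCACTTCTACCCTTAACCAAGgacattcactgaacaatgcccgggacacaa
Transcripts with this exon held 55.4% of the TPM over this place in pool 1 and 83.7% in pool 2. Only Adgrl2-217 skips it, so the share and the change of leading transcript are the same measurement. The M4 tables have 3 Adgrl2 transcripts where M21 has 20, and there Adgrl2-202 led in both pools with 44.1 and 52.4 TPM.

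Among the FLRT genes, Flrt2, which repels migrating neurons that carry Unc5d, measured 39.4 TPM in pool 1 and 47.1 TPM in pool 2. Flrt3, which binds latrophilin 3 and acts in Robo1-dependent axon guidance, measured 34.3 and 36.6 TPM. Flrt1 measured 4.26 and 5.05 TPM. All 3 were higher in pool 2, and their levels did not overlap with one another. Their coding sequences were 59.6% to 64.5% identical over aligned bases.

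The FLRT genes differed from the other members in structure. The coding sequence of each lies in 1 exon, against 19 to 32 coding exons in the leading coding transcripts of the teneurins and latrophilins. Flrt2 had 2 transcripts of 7099 and 3223 bases, at 26.3 and 29.9 TPM and at 13.1 and 17.3 TPM. They hold an identical coding sequence of 1980 bases, so the shorter one, with 33.2% and 36.6% of the gene's TPM, differs outside it. Flrt3-202 and Flrt3-201 likewise hold an identical coding sequence of 1947 bases, at 29.1 and 30.8 TPM and at 5.24 and 5.59 TPM. Long coding transcripts held 99.4% or more of the TPM of all 3 genes.

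Over all 10 genes the order by mean TPM was Adgrl2, Flrt2, Tenm3, Adgrl3, Flrt3, Tenm4, Adgrl1, Tenm2, Flrt1 and Tenm1. Flrt2 and Tenm3, Tenm3 and Adgrl3, Tenm4 and Adgrl1, and Flrt1 and Tenm1 overlapped between pools and so did not differ beyond their spread. The step from Adgrl2 to Flrt2 was 1.95-fold and that from Adgrl1 to Tenm2 was 2.35-fold. By long coding transcripts alone the order was Adgrl2, Flrt2, Flrt3, Adgrl1, Tenm3, Tenm4, Tenm2, Adgrl3, Flrt1 and Tenm1. In that order Adgrl1 and Tenm3 overlapped between pools, as did Adgrl3 with Tenm2, so the 8th place of Adgrl3 is not beyond the spread. For 3 of the 10 members (Tenm1, Tenm4 and Adgrl3) the leading transcript by TPM was not long coding in either pool, which held for 11.8% of expressed protein-coding genes. By expected counts 9 of 10 members were led by a long coding transcript in both pools, Adgrl3 in pool 2 alone. With M4 6 of 10 were, and the leading M4 transcript of Tenm3 has no M21 class. The share over all expressed genes was computed by TPM with M21 only, so these last 2 counts have none to set beside them.

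The 2 pools differed little in these genes. None of the 10 was 2-fold or more apart in counts scaled by the trimmed mean of M-values (TMM), a call made for 1.00% of the 14995 genes with a mean of 50 or more counts. By TMM the largest log2 ratios of pool 2 over pool 1 were 0.28 for Tenm1, 0.25 for Adgrl2, 0.24 for Flrt1 and 0.21 for Flrt2. Adgrl1 had -0.12 (4714 and 4041 counts) and Tenm4 -0.11 (2848 and 2447 counts). The counting interval excluded 0 for 7 of 10 members, and for 35.0% of all genes. The median over the members was 0.07, beside 0.00 over all genes, and the median size of a ratio over all genes was 0.10.

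By TMM 8 of 10 members were higher in pool 2, beside 7586 of the 14995 genes with a mean of 50 or more counts. By deposited TPM 7 members were, and scaled to the spike-in RNAs 0, since that scaling lowers every ratio by 0.37. By TPM the signs of Tenm3 (-0.01), Tenm4 (0.15) and Adgrl3 (-0.16) turned, and the log2 ratio of Tenm1, the largest by TMM, was 0.03. The effective length of a gene, the mean over its transcripts weighted by abundance, went from 3610 bases in pool 1 to 4326 in pool 2 for Tenm1, from 4778 to 4016 for Tenm4, from 2840 to 3257 for Adgrl3 and from 6129 to 6512 for Tenm3. The deposited 95% intervals of gene TPM did not overlap between pools for 2 of 10 members, Adgrl2 and Flrt2, against 12.9% of expressed protein-coding genes. These intervals do not always hold their own value: Flrt2 in pool 2, at 47.1 TPM, had an interval of 43.9 to 46.9 TPM. Of the members' transcript values above 0, 3 of 72 in pool 1 and 4 of 68 in pool 2 lay outside theirs.

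**Figure D4:**
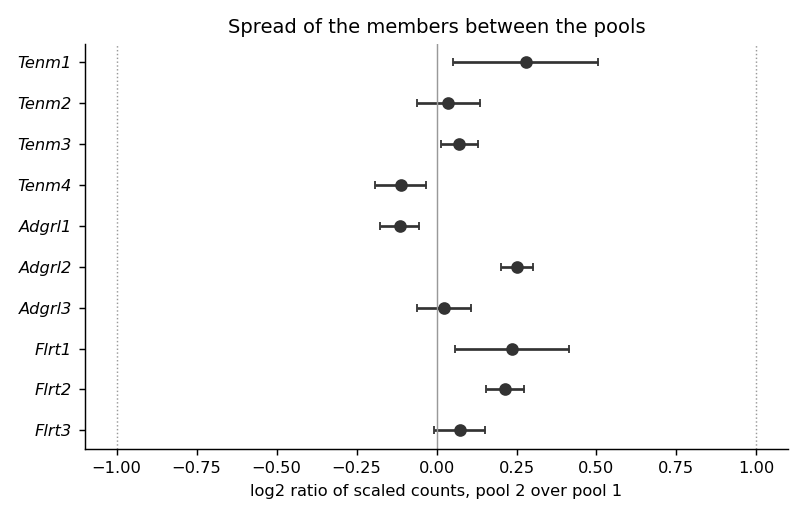
Log2 ratio of TMM-scaled expected counts, pool 2 over pool 1, with 95% counting intervals as bars and dotted lines at 2-fold. All 10 points lie between -0.12 and 0.28, and scaling to spike-ins would move each 0.37 to the left.

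Beside these ratios, the 8 skeletal muscle genes were all higher in pool 2 by TMM, with a median of 2.30 on the log2 scale, and 9 of 10 genes of mesenchyme and meninges were too, with a median of 0.28. Neuronal genes were higher in pool 2 in 9 of 12 cases (median 0.10, summed level 3419 and 3576 TPM). Radial glia genes were higher in pool 2 in 2 of 10 (median -0.10, 2734 and 2514 TPM). Spike-in scaling would turn the medians of mesenchyme and neurons to the other side of 0. No gene of these 4 lists was at 0 in either pool. Over all 14995 genes with a mean of 50 or more counts, 7586 were higher in pool 2 by TMM. Other marker lists differed between the pools too. By TMM the medians were 0.40 for hindbrain identity genes (8 of 8 higher in pool 2) and 0.76 for cartilage (4 of 4). They were -0.29 for erythroid genes (1 of 6) and -0.48 for surface epithelium (2 of 6). Forebrain genes had 0.315 (4 of 6), endothelium 0.075 (4 of 6) and microglia 0.054 (5 of 6). The part of any of these lists in the members' ratios was not tested.

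The known partners of these proteins were present as well. Of 6 netrin and Robo receptors that FLRT proteins can bind or that act with them, all were at 1 TPM or more in both pools, led by the Slit receptors Robo1 (64.9 and 74.2 TPM) and Robo2 (48.8 and 62.0 TPM). Unc5c, a netrin receptor, followed at 16.8 and 16.5 TPM. By TMM Robo2 had the largest log2 ratio of the list at 0.39, and 2 of 6 were higher in pool 2. Of 4 FGF receptors, which FLRT proteins also bind, Fgfr1 (70.9 and 69.8 TPM), Fgfr2 (62.8 and 60.6 TPM) and Fgfr3 (53.0 and 48.8 TPM) were above every teneurin with M21. With M4 Fgfr3 (54.6 and 51.1 TPM) was below Tenm3 (57.9 and 57.1 TPM).

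Among neurexins, presynaptic proteins that bind latrophilins, Nrxn3 was at 41.1 and 44.3 TPM and Nrxn2 at 16.5 and 17.7 TPM. By gene totals Nrxn3 thus stood near the level of Tenm3 and Adgrl3. All 10 listed G protein alpha subunits were at 1 TPM or more in both pools, led by Gnas (1317 and 1345 TPM), Gnai2 (411 and 396 TPM) and Gnai3 (149 and 154 TPM). Reported contacts of teneurins were measured too, with the dystroglycan gene Dag1 at 57.9 and 61.7 TPM and Mbd1, a methyl-CpG-binding protein, at 34.2 and 33.4 TPM. None of the partner genes named here was 2-fold apart between the pools.

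The annotation moved 2 members most. Adgrl2 was at 58.2 and 70.7 TPM in the M4 tables, 1.3-fold lower than with M21 in each pool. Tenm3 was at 57.9 and 57.1 TPM with M4, 1.42-fold and 1.40-fold higher than with M21. The other 8 lay within 1.07-fold of each other in the 2 annotations, and the M4 values put Tenm3 next to Adgrl2. None of the 10 reached 2-fold in both pools, a call made for 3.08% of 15423 genes.

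Genes that overlap a member could share its reads, since no label or header says if strand was used in counting. Of 34 overlapping genes, 12 were at 1 TPM or more in either pool and 8 share exon bases with a member. Flrt1 lies inside Macrod1 (4.35 and 4.28 TPM) and Flrt3 inside Macrod2 (45.8 and 46.2 TPM), both on the other strand and with 0 shared exon bases. In Adgrl1, the miRNA genes Gm44330 (21.2 and 11.3 counts) and Gm44450 (1 count in each pool) lie in its exons on the other strand. Gm43573 shares 202 exon bases with Adgrl2 and had 9.51 and 18.2 counts, and Gm19744 shares 114 with Tenm3 and had 36 and 42. Of the other overlapping genes at 1 TPM or more, Gm32842, Gm45772, Gm8319, Gm48014 and Gm48015 share 0 exon bases and had at most 72 counts. The largest shared stretches were those of Gm16054 with Adgrl3 (1582 exon bases; 11.6 and 12.3 counts), Sh2d1a with Tenm1 (1465; 23.2 and 14.1 counts) and Gm10644 with Adgrl1 (1107; 42.5 and 42.2 counts), all under 1 TPM and named for their shared bases. Tenm1 held 307 and 346 counts, and Adgrl1, Adgrl2 and Tenm3 held 4041 or more in each pool.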

How the data were processed

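Libraries of 2 pools were sequenced. Per the labels' protocols, each started from 10 ng of RNA, with oligo-dT priming of cDNA and Nextera tagmentation, which can affect the recovery of long transcripts. The quantification program was not given in the sources used here. Expected counts in the deposited tables are estimated counts per gene or transcript without any scaling. TPM as deposited sums to a fixed total over all entries, spike-ins included. FPKM as deposited is per kilobase and library total. The deposited isoform percent gives each transcript's part of its gene, and the authors' 95% bounds of TPM are in the M21 tables, per the file headers.

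M21 was used for the values and M4 as an alternative, both on mm10. Symbols, exons and sequences came from GENCODE M21, where 55536 of 55536 gene identifiers matched. Members and lists were chosen with earlier results of these data known. Named beside the members were the 3 highest genes of each list, up to 3 under 1 TPM in both pools, overlapping genes at 1 TPM or more, and transcripts at 10% or more of a member in both pools; some genes that this rule names are not reported here. Counts were rounded and scaled by TMM (edgeR 4.0.16, R 4.3.3; DESeq2 1.42.0 size factors as an alternative), with a prior count of 0.5 and a minimum mean of 50 counts. Intervals of ratios are exact binomial at 95% (scipy 1.17.1) and cover counting error only. Common dispersion gave a coefficient of variation of 0.0858 over 18575 genes, and the pools differed by a chi-square of 10.4 per gene, so they are separate libraries. On simulated counts for 14972 genes, 200 of 200 genes changed by well over 2-fold passed the 2-fold call, as did 0.284% of unchanged genes. Recovery of changes near 2-fold was not measured. The spread of the simulated counts was set in advance and not taken from these pools, so 0.284% is not their rate of false calls. Coding sequences were aligned with Biopython 1.88. Alternatives covered annotation, scaling, unit, thresholds and leaving out each pool.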

Additional observations from a re-analysis of the deposited data

How the results depend on the processing

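The median member level, 33.5 TPM, was 35.2 TPM with M4, 36.9 TPM over genes only, 20.3 in FPKM, 33.2 to 34.8 TPM with 1 pool left out, and 18.4 TPM by long coding transcripts alone, an alternative chosen after seeing the data. No member was 2-fold apart between pools under any scaling, unit, count minimum, prior or annotation tried. The number of genes that were, 150, was 250 with spike-in scaling, 7234 with no minimum count and 38 with a minimum mean of 200 counts, where fewer genes are tested. Of 10 members, 8 were higher in pool 2 by TMM, beside 7586 of 14995 genes, and 0 members were with spike-in scaling. Members led by a long coding transcript in both pools numbered 7 by TPM, 9 by expected counts and 6 with M4, and those with the same leading transcript in both pools 9, 8 and 10. Shares over all genes were computed for the first of these settings only. The counts of genes at 1 TPM or more and of genes 2-fold apart between annotations moved by at most 1.5 times. At 5 TPM, 8 of 10 members passed in both pools. Shares of short exons from expected counts or from long coding transcripts alone, both added after seeing the data, differed most for the 18-base exon of Adgrl3, with 28.1% and 100% against 19.1%. The 100% rests on Adgrl3-217 alone, because no long coding transcript that skips the exon had any TPM. Transcript shares are estimates from reads that several transcripts share, and those of Tenm1 rest on few counts. With 2 pools the SD has little precision. No paired analysis was possible because there is 1 group, so its replicate numbers pair with nothing.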

Other observations

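Other adhesion G protein-coupled receptors were also present. Of 17 listed, 16 were at 1 TPM or more in both pools. Their median level was 9.51 TPM by gene totals, beside 40.2 TPM for the latrophilins. The latter is the total of Adgrl3, of which long coding transcripts held 18.2% (7.24 TPM). Adgrg1, known for its role in cortical development, was the highest at 145 and 149 TPM, followed by the planar polarity cadherin Celsr2 at 58.3 and 48.6 TPM and Adgra3 at 36.2 and 34.3 TPM. Adgrd1 was the lowest, at 0.07 TPM in each pool. By TMM-scaled counts 13 of 17 were lower in pool 2, with a median log2 ratio of -0.07.

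Of 26 other leucine-rich repeat membrane proteins, 24 were at 1 TPM or more in both pools, with a median level of 8.81 TPM, beside 35.5 TPM for the FLRT genes. Lrrn1 was the highest at 99.2 and 104 TPM, followed by Lrrn3 at 53.3 and 44.9 TPM and Lingo1, a Nogo receptor partner, at 27.6 and 28.3 TPM. Lingo4 (0.40 and 0.41 TPM) and Lingo3 (0.73 and 0.57 TPM) were under 1 TPM in both pools. In this list 15 of 26 were higher in pool 2 by TMM, with a median log2 ratio of 0.05.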
